A study of Homo sapiens with 6 samples.

Results

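The genes described here are 37 listed members of the endoplasmic reticulum (ER) quality control machinery: 10 genes for stress sensors, the related transcription factors and the enzymes that process them, 6 genes of the lectin cycle that folds glycoproteins, and 21 genes of ER-associated degradation (ERAD). A member was taken by its symbol, and 36 of the 37 had at least 1 probe set annotated to that symbol alone, 95 probe sets in all, among 19775 genes so annotated. Above the signal floor on any array were 34 members, and 32 lay above it on all 6 arrays. DERL3 and RNF5 stayed at the floor on every array, and SYVN1 was read only by a probe set that carries a second symbol. FICD and CREB3L1 passed the filter on low values only through the Twist-line arrays, so both are described but left out of the counts over members, which run over the 32.

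Total RNA came from HMLE cells, which are immortalised human mammary epithelial cells. The Twist line carried a pBabe-Twist retrovirus, which brings in Twist, a factor known to turn epithelial cells mesenchymal, and the control line carried a pBabe-shGFP retrovirus, which brings in a hairpin against green fluorescent protein. The labels do not say whether either line is 1 clone. In each line 1 sample received the solvent DMSO and 2 received the compound Cmp302, of which the labels give the code name alone, and each sample was hybridised to 1 Affymetrix U133 Plus array, which makes 1 array per group. The labels contradict each other on dose and time: titles and treatment protocol give 5 µM or 10 µM of Cmp302, with 6 h of exposure, but the same samples' source names and tags give 2 µM, with 4 h for the one and 8 h for the other. Titles are used here to name the arrays, so a step between levels may be one of dose or of time. Values are log2 signals, a difference of 1 is 2-fold, and the floor lay at 3.71 log2 units.

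Cells read protein misfolding in the ER through membrane sensors, IRE1 (gene ERN1), PERK (EIF2AK3, not a listed member) and ATF6, and the response they start is the unfolded protein response (UPR). New glycoproteins are trimmed by glucosidases, held by the lectin chaperones calnexin and calreticulin, and sent round again by a glucosyltransferase that recognises misfolded chains. Chains that fail are trimmed of mannose, captured by ERAD lectins, passed through the membrane at a ubiquitin ligase complex, and pulled into the cytosol for the proteasome by the ATPase p97 (VCP).

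Promoters of the members were searched for the motifs that UPR transcription factors are known to bind, and those of HERPUD1 and FICD are shown because both genes lay past 2-fold above DMSO on the Twist 10 µM array and both hold such a motif. The windows run from 250 bases before to 50 bases after the start site, are taken from RefSeq on build GRCh38.p14, and were found for 32 of the 37 members. HERPUD1 lies on the plus strand of chromosome 16 with its window at chr16:56931892-56932191, and FICD on the plus strand of chromosome 12 with its window at chr12:108515027-108515326. Capitals mark the motif matches.
HERPUD1: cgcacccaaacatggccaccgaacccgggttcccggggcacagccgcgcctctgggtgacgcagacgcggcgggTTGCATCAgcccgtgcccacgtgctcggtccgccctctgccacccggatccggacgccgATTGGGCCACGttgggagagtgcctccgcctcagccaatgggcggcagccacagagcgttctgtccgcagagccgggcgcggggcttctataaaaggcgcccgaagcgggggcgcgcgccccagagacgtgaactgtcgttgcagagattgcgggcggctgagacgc
FICD: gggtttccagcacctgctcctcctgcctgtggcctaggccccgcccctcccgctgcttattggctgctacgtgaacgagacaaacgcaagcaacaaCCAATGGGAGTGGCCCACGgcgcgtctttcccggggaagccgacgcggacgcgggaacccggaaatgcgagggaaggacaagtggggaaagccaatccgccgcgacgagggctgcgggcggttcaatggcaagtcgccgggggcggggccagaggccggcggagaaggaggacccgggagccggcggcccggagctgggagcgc
In HERPUD1 the first run of capitals is an amino acid response element (CARE, TGATGCAA) on the opposite strand, so it reads TTGCATCA here, 176 bases before the start site. The later run is the ER stress element II (ERSE-II: ATTGG, 1 base, then CCACG), 117 bases before the start site. In FICD the capitals mark an ER stress element (ERSE: CCAAT, 9 bases, then CCACG), 154 bases before the start site.

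Searched on both strands, ERSE matched 27 of 35116 RefSeq promoter windows, or 0.0769%, and 4 of these belong to members, namely FICD, XBP1, CANX and CALR. ERSE-II matched 19 windows, or 0.0541%, with HERPUD1 as the member among them. CARE matched 304 windows, or 0.866%, again with HERPUD1 as the member, and the core of the UPR element, TGACGTG, matched 692 windows, or 1.97%, with UBE2J1 and VCP as members. The motifs of HERPUD1 do not overlap each other. A match is a description of these letters in this window. Of the 4 members with ERSE, FICD lay past 2-fold above DMSO on the Twist 10 µM array. The brightest probe sets of XBP1, CANX and CALR, by which these genes are read, stayed within 2-fold of DMSO on all Cmp302 arrays. A dimmer probe set of CALR lay past 2-fold above DMSO in the Twist line, by 1.03 log2 units at 5 µM and 1.58 at 10 µM, and another stood at -0.67 at 10 µM.

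Facts of the whole set of arrays that touch these genes are as follows. In the Twist line 2 of 6 epithelial markers lay above the floor, with summed log2 signals of 27.06 to 28.22, against 6 of 6 and 76.42 to 78.83 in the control line, and CDH1, EPCAM, KRT5 and ESRP1 did not leave the floor in the Twist line. Mesenchymal markers summed to 74.04 to 75.31 in the Twist line and 57.00 to 57.29 in the control line, with 6 of 6 above the floor in both. ZEB1 had 12.72 to 13.16 in the Twist line and 5.93 to 6.61 in the control line, and ZEB2 10.68 to 11.46 and 4.51 to 5.14. TWIST1 had 11.35 to 11.96 and 10.48 to 10.70, and FN1 13.49 to 13.60 and 13.24 to 13.31. Of the 5 measured blood, endothelial and fat cell markers PTPRC, CDH5 and ADIPOQ were at the floor on all 6 arrays. PECAM1, an endothelial marker, had 7.20 to 7.64 in the Twist line and 3.80 to 4.05 in the control line, and FABP4, a fat and endothelial marker, had 10.62 to 11.00 in the Twist line and 7.77 to 8.18 in the control line, with sums over the list of 29.3 to 29.66 in the Twist line and 22.71 to 23.36 in the control line. Their part in the results was not tested. RNA quality was read from GAPDH and ACTB as the mean excess of the signal at the 3′ end over that in the middle of the transcript. This 3′ contrast was 0.96, 0.36 and 0.45 log2 units in the Twist line and 0.28, 0.45 and 0.84 in the control line, in order of level. The Twist DMSO array, the baseline of every Cmp302 difference in that line, thus had the highest value, and its part in those differences was not tested. As aids, these are given beside the members: a quality-matched difference, which subtracts what a slope on the 3′ contrast, fitted per gene within the control line, predicts, and the difference between the Twist 10 µM and control 5 µM arrays, whose mean contrasts are nearly equal. GAPDH alone had 0.14 on that Twist array and 0.41 on that control array, and ACTB alone 0.75 on the Twist array and 0.49 on the control array, so the genes differ in opposite directions. In the control line the contrast was higher at each higher Cmp302 level, so quality and compound cannot be told apart in the slope, and the matched values may also subtract a response to the compound.

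Cmp302 was compared with DMSO in the Twist line to ask which ER quality control genes differ with the compound in cells that carry Twist. Most of the signals lay above DMSO. At 5 µM 25 of 32 members lay above their DMSO signal, with a median difference of 0.42 log2 units against 0.00 over all genes, and at 10 µM 26 of 32 did, with a median of 0.49 against -0.01. Past 2-fold at 5 µM were 3 members above DMSO, ERN1, UGGT1 and HERPUD1, and 1 below, EDEM3, where 4.49% and 4.89% of all 10787 genes above the floor on all arrays were past 2-fold above and below. Past 2-fold at 10 µM were 7 members above DMSO, joined by CREB3, DERL2, OS9 and SELENOS, and again EDEM3 below, where 8.14% and 8.31% of all genes were. Both comparisons use the same DMSO array, so they are not separate evidence. By non-overlap, both Twist Cmp302 arrays lay above all 4 other arrays for 17 members, or 53.1%, against 24.3% of all genes, and below them for MBTPS1, EDEM3 and UBE2G2, or 9.38%, against 24.2%.

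**Figure D1:**
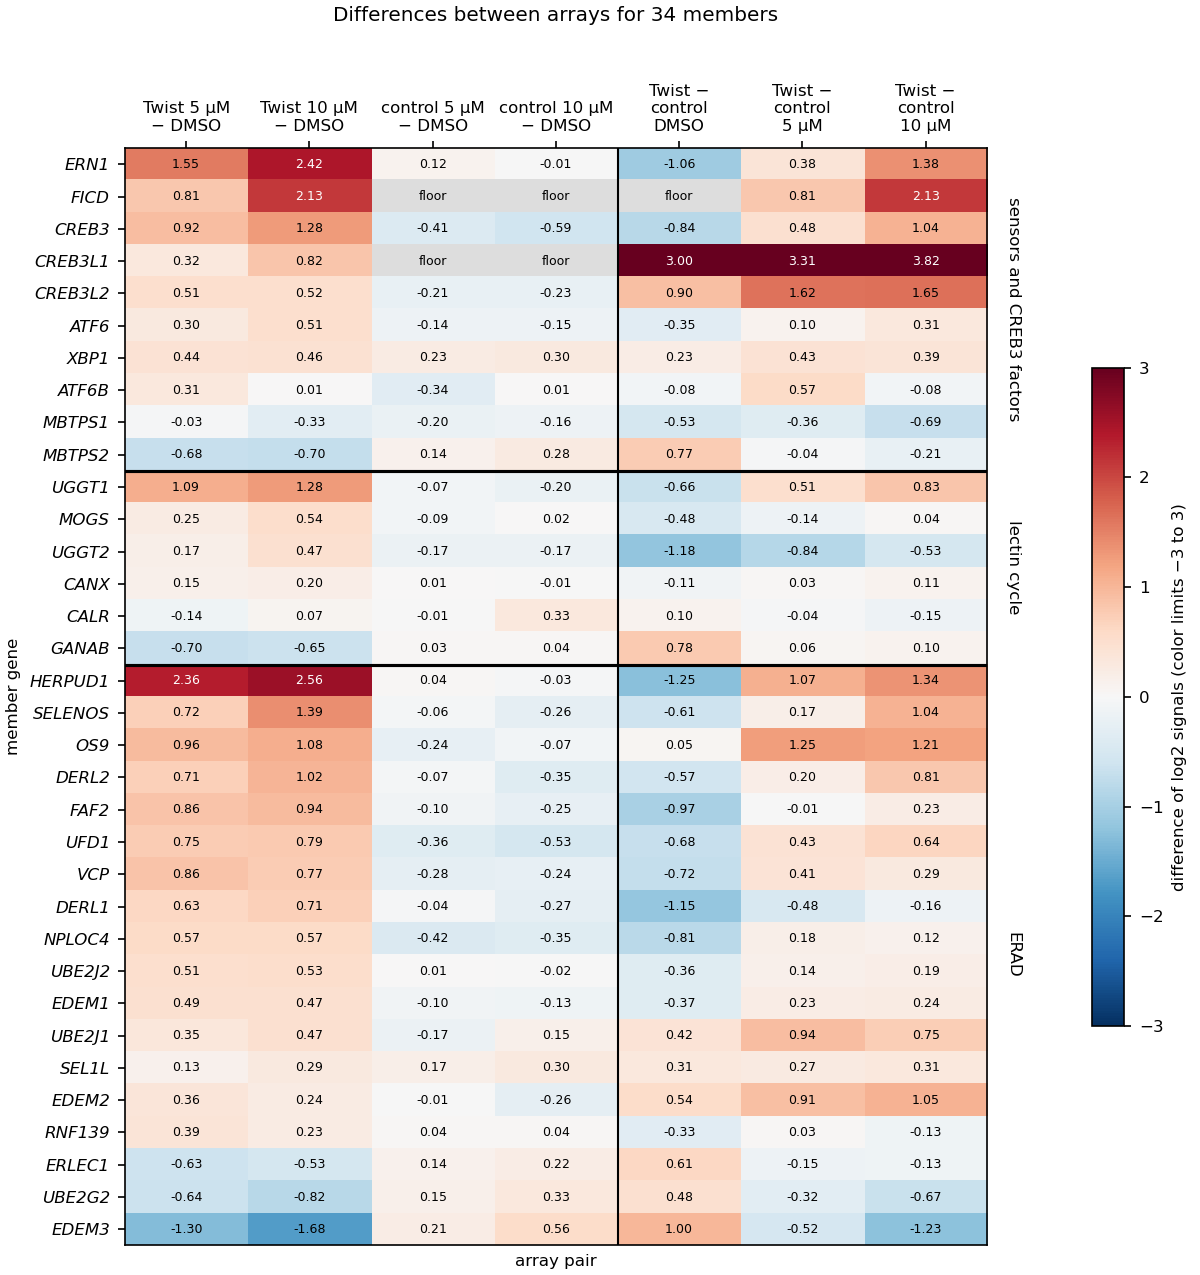
Differences of log2 signals for 34 members, 1 row per gene, with the 4 columns on the left giving each Cmp302 array minus the DMSO array of its line and the 3 on the right the Twist line minus the control line under the same treatment. Red is higher, blue is lower, colour stops at 3, and grey marks pairs in which both arrays lay at the floor; where 1 side is at the floor, as for FICD and CREB3L1, the number is a bound. The left pair of columns is mostly red with ERN1, FICD and HERPUD1 above 2 at 10 µM and EDEM3 at -1.68, while the control-line columns lie between -0.59 and 0.56.

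The test over arrays was a limma fit of a straight trend over the levels DMSO, 5 µM and 10 µM in each line, with 2 residual degrees of freedom over the 6 arrays and Benjamini-Hochberg adjustment over 12478 genes. Its error comes from departures from a straight line, not from the spread between replicates, of which there were none. In the Twist line 8 of the 32 members rose, ERN1, CREB3, UGGT1, HERPUD1, DERL2, OS9, SELENOS and FAF2, and 2 fell, EDEM3 and UBE2G2, where 11.4% of all genes above the floor on all arrays rose and 11.8% fell. The fit also called FICD and CREB3L1, but their control-line values are the floor itself, which sets the trend there and the error, so no p is given for them. Leaving out the Twist 5 µM array called 16 members, CREB3L1 among them, and 3378 of 12384 genes. Leaving out any of the other 5 arrays called no member, nor any other gene. Each of these fits has 1 residual degree of freedom. Each line has its own slope, so leaving out a control-line array cannot move the Twist-line trend and changes only its error. Without a Twist-line array the remaining 2 are fitted exactly, so the error comes from the control line and, through limma, from other genes. In the control line 0 of the members, and 0 of all genes, were called, with a lowest adjusted p of 0.621 by limma. At an unadjusted p under 0.05 that trend had 937 of the 12478 genes and 0 members, and the Twist-line trend had 5284 genes and 19 members. These 2 member counts run over the 34 tested members, and the 19 include FICD and CREB3L1.

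**Figure D2:**
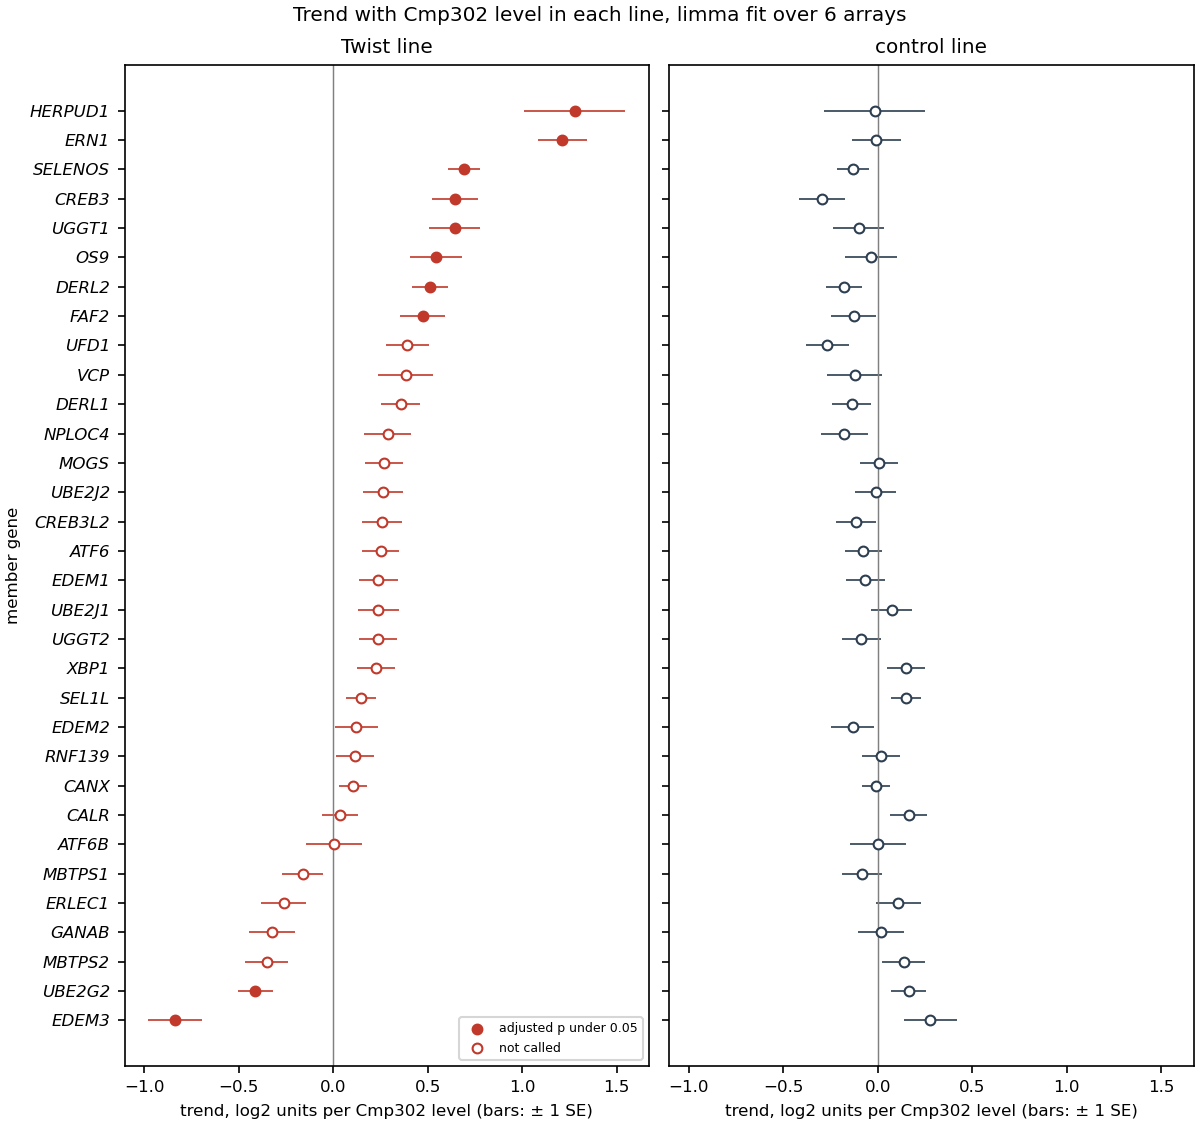
Trend of each of the 32 members above the floor on all arrays, in log2 units per Cmp302 level, with bars of 1 standard error from the limma fit, the Twist line in the left panel and the control line in the right. Filled points have an adjusted p under 0.05. The filled points of the Twist line run from HERPUD1 at 1.28 to FAF2 at 0.47 above 0, with UBE2G2 and EDEM3 at -0.41 and -0.84 below it, and no point of the control line is filled.

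ERN1 encodes IRE1, the ER kinase and endonuclease that splices the mRNA of XBP1. Under DMSO, 5 µM and 10 µM its log2 signals were 8.22, 9.77 and 10.64 in the Twist line and 9.28, 9.39 and 9.26 in the control line. The Twist line was thus the lower one under DMSO and the higher one with Cmp302, and both its Cmp302 arrays lay above all control-line arrays. The difference from DMSO in the Twist line was 1.55 at 5 µM, or 2.93-fold, and 2.42 at 10 µM, or 5.37-fold. The limma trend was 1.21 ± 0.13 per level (SE, adjusted p = 0.0104) in the Twist line, and it exceeded that of the control line by 1.22 ± 0.18 (adjusted p = 0.0476). This call of a difference between the trends was lost in 11 of 15 alternatives. The quality-matched differences were 1.5 and 2.39, and ERN1 was 1.25 higher on the Twist 10 µM array than on the control 5 µM array. The other 2 probe sets of ERN1 were dimmer: 1 stayed under the floor on all arrays, and 1 had at most 3.97 in the Twist line and 4.36 to 4.79 in the control line. With the median over probe sets the trend was 0.13 (limma adjusted p = 0.160) and ERN1 was called lower in the Twist line in the difference between lines.

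FICD encodes the ER enzyme that adds AMP to the chaperone BiP and removes it. It lay at the floor on the Twist DMSO array and on all 3 control-line arrays, and had 4.52 and 5.84 log2 units on the Twist 5 µM and 10 µM arrays. These are differences of at least 0.81 and at least 2.13, or at least 1.75-fold and at least 4.38-fold. With 4 of its 6 values at the floor, FICD has no usable test, and a gene at the floor in the control line has no quality-matched value of its own.

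XBP1, the transcription factor whose mRNA IRE1 splices, differed far less from DMSO than ERN1. Its signals were 11.13, 11.57 and 11.58 log2 units over the 3 levels in the Twist line and 10.90, 11.13 and 11.19 in the control line. Both lines were lowest under DMSO, by 0.44 and 0.46 in the Twist line and 0.23 and 0.30 in the control line, and neither trend was called. Splicing of XBP1 was not measured here.

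ATF6 encodes the sensor that is cut in the Golgi to release a transcription factor. It had 9.47, 9.77 and 9.97 log2 units in the Twist line and 9.82, 9.67 and 9.66 in the control line, and its trends were not called. Its 4 probe sets above the floor disagreed at 10 µM, with differences from DMSO of -0.64 to 1.27 in the Twist line. ATF6B, its paralogue, had 9.34, 9.65 and 9.34 in the Twist line and 9.42, 9.07 and 9.42 in the control line, with no order by level in either. The proteases that cut ATF6 lay lower with Cmp302 in the Twist line without being called. MBTPS2, the site-2 protease, had 12.13, 11.45 and 11.42 log2 units in the Twist line and 11.36, 11.49 and 11.63 in the control line, so its high point was the Twist DMSO array. MBTPS1, the site-1 protease, had 9.24, 9.21 and 8.91 in the Twist line, all below its 9.77, 9.57 and 9.60 in the control line. Its differences from DMSO at 5 µM and 10 µM were -0.03 and -0.325 in the Twist line and -0.195 and -0.163 in the control line. The dimmer probe set of MBTPS1 stood at 0.07 and -0.085 in the Twist line.

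The CREB3 factors are ER-anchored relatives of ATF6 that are released by the same proteases. CREB3 had 8.73, 9.65 and 10.01 log2 units in the Twist line and 9.57, 9.16 and 8.97 in the control line. The difference between the Twist and control lines was -0.84 under DMSO and 1.04 at 10 µM, and the signals ran in opposite directions with level. The Twist-line trend was 0.64 ± 0.12 per level (SE, limma adjusted p = 0.0259), with a difference at 10 µM of 1.28, or 2.44-fold, and 0.79 after quality matching. The trends of the lines differed by 0.94, which was not called (limma adjusted p = 0.0519).

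CREB3L1 and CREB3L2 separated the lines. CREB3L1, also called OASIS, had 6.71, 7.03 and 7.53 log2 units in the Twist line and lay at the floor on all control-line arrays, a difference of at least 3.82 at 10 µM. Since all its control-line values are the floor, the size is a bound with no usable test. CREB3L2, also called BBF2H7, had 11.64, 12.15 and 12.15 in the Twist line and 10.74, 10.52 and 10.50 in the control line. Every Twist-line array exceeded every control-line array, by 0.90 under DMSO and 1.65 at 10 µM, and the limma difference between lines over the 3 treatments was 1.39 ± 0.23 (SE, adjusted p = 0.0086). The error of this line test comes from how the difference between lines varies over the treatments, not from replicates. The CREB3L2 call was lost in 6 of 17 alternatives. Among them were the median over probe sets (limma adjusted p = 0.0638) and the set without probe sets of suffix _s_at, _x_at or _a_at. The fits without either 5 µM array or without both also lost it. These left-out fits are not separate checks, since an array whose partner is missing adds nothing to the line difference. All of them gave CREB3L2 the same estimate, 1.27. In RNA of a whole culture fewer expressing cells and less RNA per cell cannot be told apart.

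**Figure D3:**
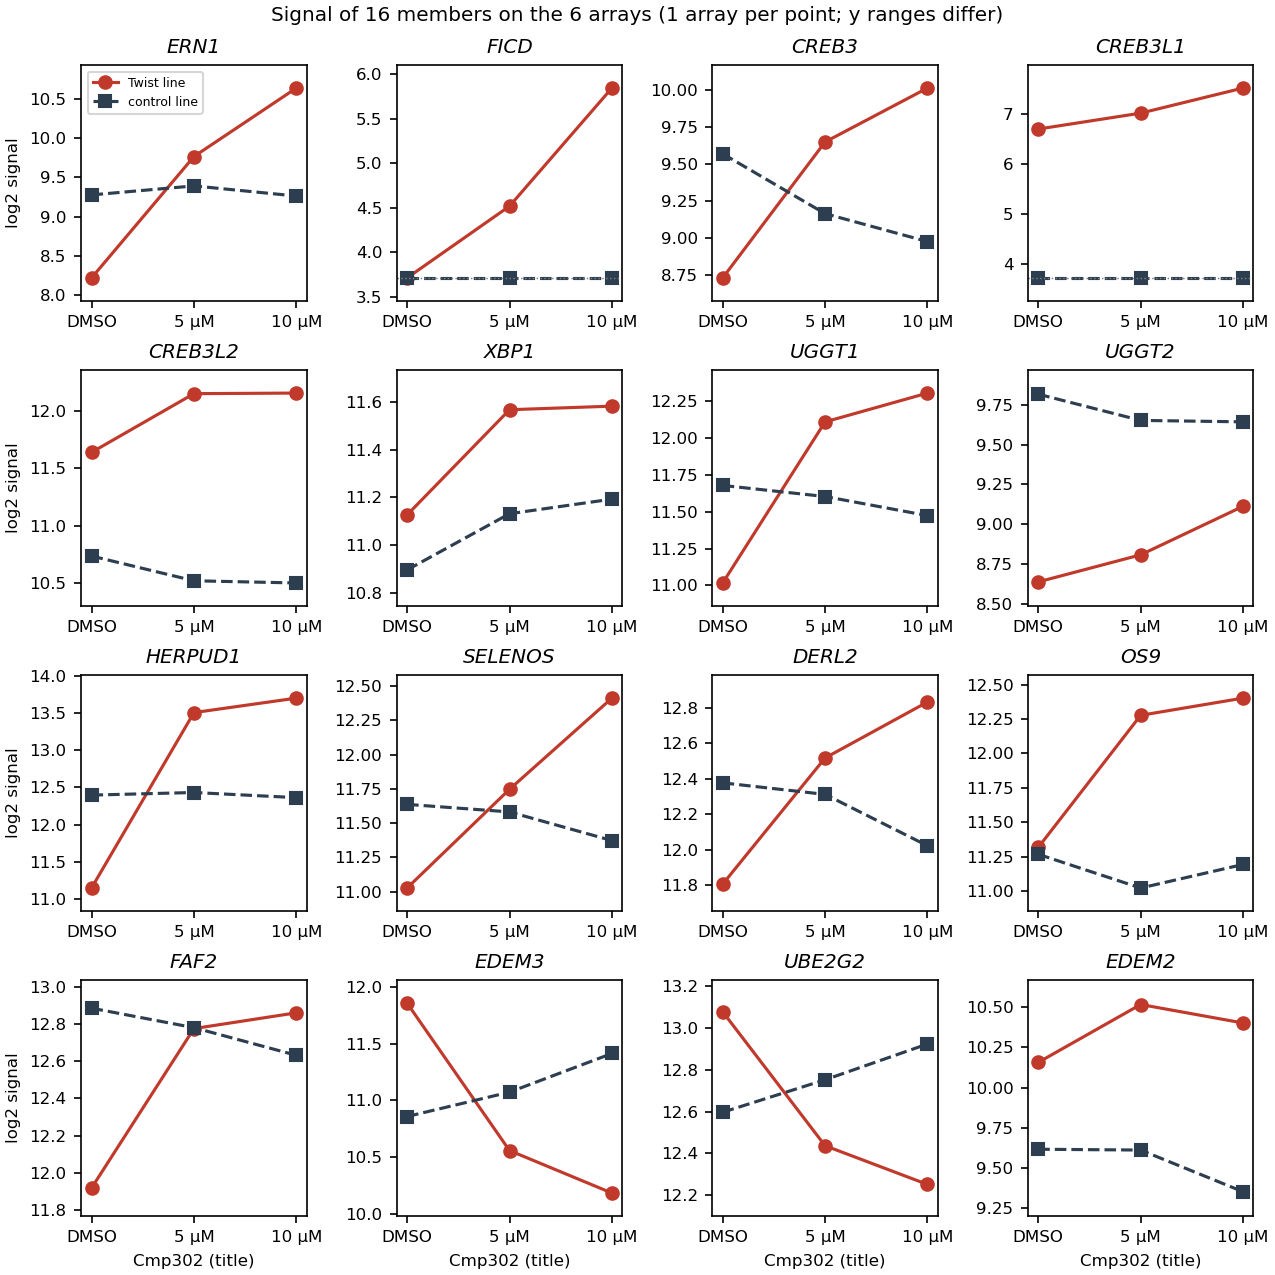
Log2 signals of 16 members on the 6 arrays, 1 array per point, by the Cmp302 level of the title, with the Twist line as red circles and the control line as dark squares on a dashed line; y ranges differ between panels and the dotted line marks the floor of 3.71. The lines cross for ERN1, CREB3, UGGT1, HERPUD1, SELENOS, DERL2, FAF2, EDEM3 and UBE2G2, whereas CREB3L1, CREB3L2, UGGT2 and EDEM2 keep the lines apart on all 6 arrays.

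In the lectin cycle 1 of 6 genes, or 16.7%, rose with Cmp302 in the Twist line and none fell, which is near the 11.4% and 11.8% of all genes. It was UGGT1, the glucosyltransferase that tags misfolded glycoproteins for another round with calnexin. UGGT1 had 11.02, 12.11 and 12.30 log2 units in the Twist line and 11.68, 11.60 and 11.47 in the control line. Both Twist Cmp302 arrays were above, and the Twist DMSO array below, all control-line arrays. The differences from DMSO were 1.09, or 2.13-fold, and 1.28, or 2.44-fold, with a limma trend of 0.64 ± 0.13 per level (SE, adjusted p = 0.0304). After quality matching they were 0.87 and 1.1. All 5 probe sets above the floor lay above DMSO at 10 µM, by 0.09 to 1.30.

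UGGT2, the paralogue of UGGT1, had 8.64, 8.81 and 9.11 log2 units in the Twist line and 9.82, 9.65 and 9.64 in the control line, with every Twist-line array below every control-line array. The limma difference between lines was -0.85 ± 0.23 (SE, adjusted p = 0.0435). It rests on the probe set with the highest signal, since the median over probe sets gave 0.02. Of 17 alternatives that median reversed it, and 7 lost the call in the same direction. Among the 7 were all fits that leave out a Cmp302 array. With Cmp302 the 3 probe sets of UGGT2 above the floor differed from DMSO by -0.90 to 0.48 in the Twist line.

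The lectin chaperones, as read by their brightest probe sets, stayed close to their DMSO signal. CANX, which encodes calnexin, had 13.41, 13.56 and 13.61 log2 units in the Twist line and 13.52, 13.53 and 13.50 in the control line. CALR, which encodes calreticulin, had 12.82, 12.68 and 12.89 in the Twist line and 12.72, 12.71 and 13.04 in the control line. A dimmer probe set of CALR, the one not marked for cross-hybridisation, stood 1.03 above DMSO at 5 µM and 1.58 at 10 µM in the Twist line, while another stood at -0.67 at 10 µM. Without probe sets of suffix _s_at, _x_at or _a_at CALR was called higher in the Twist-line trend by limma. The glucosidases lay on opposite sides of DMSO, and neither was called. MOGS, glucosidase I, had 9.08, 9.33 and 9.61 in the Twist line and 9.56, 9.47 and 9.57 in the control line. GANAB, the catalytic subunit of glucosidase II, had 12.37, 11.67 and 11.72 in the Twist line and 11.59, 11.61 and 11.62 in the control line, so the Twist DMSO array alone stood out.

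ERAD held 18 of the 32 members, and 5 of them, or 27.8%, rose and 2, or 11.1%, fell with Cmp302 in the Twist line, against 11.4% and 11.8% of all genes, so the share that fell is near the background. HERPUD1, a membrane scaffold of the ubiquitin ligase complex, had the widest difference of the members above the floor on all arrays. It had 11.15, 13.51 and 13.70 log2 units in the Twist line and 12.40, 12.43 and 12.36 in the control line. The difference between the Twist and control lines was -1.25 under DMSO and 1.34 at 10 µM. The differences from DMSO were 2.36, or 5.13-fold, and 2.56, or 5.88-fold, so most of the step was present at 5 µM. The limma trend was 1.28 ± 0.27 per level (SE, adjusted p = 0.0306), and the difference of 1.29 between the lines' trends was not called (adjusted p = 0.0695). Quality matching gave 2.31 and 2.51. The other probe set of HERPUD1 lay under the floor on the Twist DMSO array and all control-line arrays and had 5.15 and 5.97 on the Twist Cmp302 arrays.

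SELENOS, a selenoprotein that recruits p97 to the ER membrane, had 11.03, 11.75 and 12.41 log2 units in the Twist line and 11.64, 11.58 and 11.37 in the control line. Its signal stood 0.67 above the 5 µM array on the Twist 10 µM array, whereas HERPUD1 stood 0.20 above it. The difference from DMSO was 0.72 at 5 µM and 1.39, or 2.61-fold, at 10 µM, and 0.43 and 1.14 after quality matching. The limma trend was 0.69 ± 0.08 per level (SE, adjusted p = 0.0124), and it exceeded that of the control line by 0.82 ± 0.12 (adjusted p = 0.0468). ERN1 and SELENOS were thus the 2 of the 32 members whose trends differed between lines by the test, where 0.621% of all genes above the floor on all arrays were called higher. The call was lost in 11 of 15 alternatives for ERN1 and in 9 of 14 for SELENOS. With the levels coded 0, 1 and 1 SELENOS was no longer called and ERN1 was, among 18 members and 3314 genes in all.

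Among the derlins, which take part in moving chains across the ER membrane, DERL2 had 11.81, 12.52 and 12.83 log2 units in the Twist line and 12.38, 12.31 and 12.02 in the control line. Its Twist Cmp302 arrays lay above all control-line arrays, with a limma trend of 0.51 ± 0.10 per level (SE, adjusted p = 0.0253) and a difference at 10 µM of 1.02, or 0.69 after quality matching. DERL1 had 11.88, 12.51 and 12.59 in the Twist line, all below its 13.03, 12.99 and 12.75 in the control line, and was not called. Its probe sets above the floor differed from DMSO by -0.67 to 0.72 at 10 µM in the Twist line.

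The EDEM proteins trim mannose from misfolded glycoproteins, and they did not share a direction. EDEM3 had 11.86, 10.56 and 10.18 log2 units in the Twist line and 10.86, 11.07 and 11.41 in the control line. Twist minus control was 1.00 under DMSO and -1.23 at 10 µM, and both Twist Cmp302 arrays lay below all others. The differences from DMSO were -1.30 and -1.68, the limma trend was -0.84 ± 0.14 per level (SE, adjusted p = 0.0216), and 3 of 3 probe sets lay between -1.68 and -1.29 at 10 µM. In the control line EDEM3 stood 0.56 above DMSO at 10 µM, the array with the highest 3′ contrast of that line, and quality matching gave -0.71 and -1.17 in the Twist line. The lines' trends differed by -1.12, which was not called (limma adjusted p = 0.0506).

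EDEM1 had 11.11, 11.60 and 11.58 log2 units in the Twist line and 11.48, 11.37 and 11.34 in the control line, and was not called. EDEM2 had 10.16, 10.52 and 10.40 in the Twist line, above its 9.62, 9.61 and 9.35 in the control line on every array. The limma difference between lines was 0.83 ± 0.21 for EDEM2 (SE, adjusted p = 0.0373), and it was lost in 7 of 17 alternatives. Among these were the 4 that leave out a single Cmp302 array (limma adjusted p up to 0.371). Leaving out either array of a level gives the same estimate, so the 4 are not separate checks. Its Twist-line trend was not called.

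The ERAD lectins OS9 and ERLEC1, which read the trimmed glycans and hand the chain to the ligase complex, also went opposite ways. OS9 had 11.32, 12.28 and 12.40 log2 units in the Twist line and 11.27, 11.02 and 11.19 in the control line. The lines were 0.05 apart under DMSO and 1.21 apart at 10 µM. Its limma trend was 0.54 ± 0.14 per level (SE, adjusted p = 0.0431), and the difference from DMSO was 1.08 at 10 µM, or 1.07 after quality matching. Its other probe set stood at -0.17, and with the median over probe sets the trend was 0.23 and not called. ERLEC1 had 12.43, 11.80 and 11.90 in the Twist line and 11.82, 11.95 and 12.03 in the control line, high on the Twist DMSO array alone and not called.

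**Figure D4:**
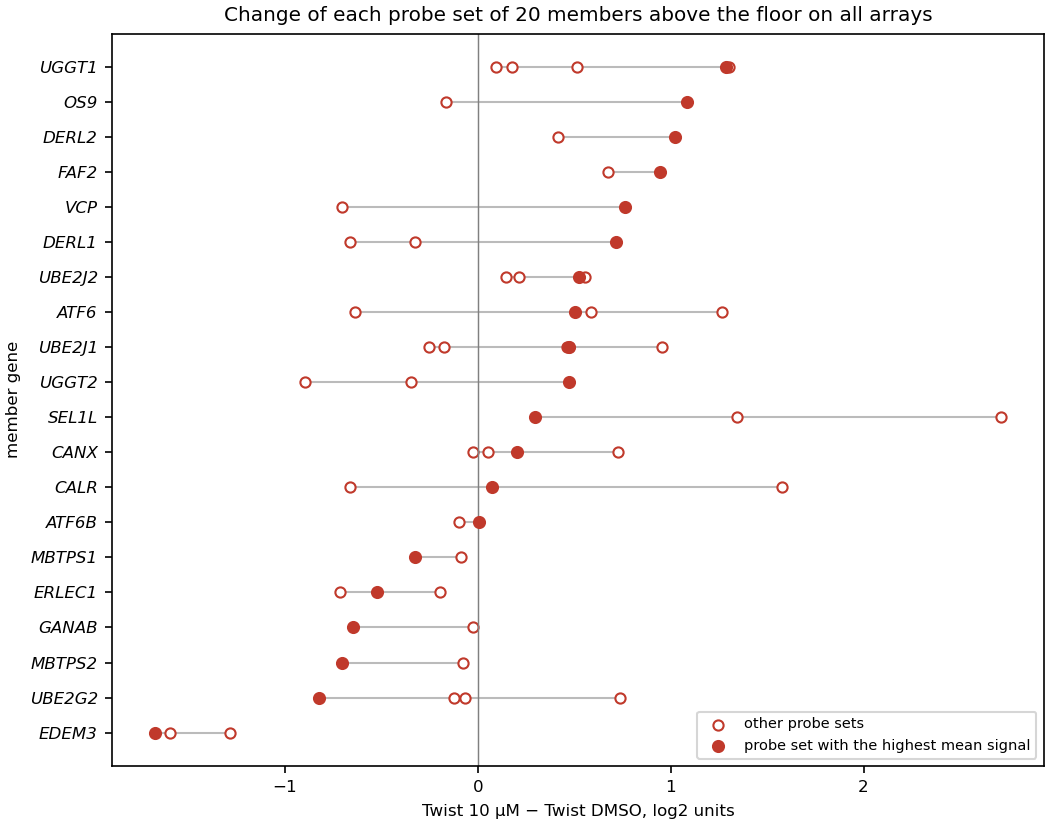
Twist 10 µM minus Twist DMSO, in log2 units, for each probe set above the floor on all 6 arrays of the 20 members that had at least 2 of them; the filled point is the brightest probe set on average, by which the gene is read, and open points are the others. For 10 members the points lie on both sides of 0, while all points lie above 0 for UGGT1, SEL1L, DERL2, UBE2J2 and FAF2 and below 0 for MBTPS1, MBTPS2, GANAB, EDEM3 and ERLEC1.

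Probe sets of 1 gene often disagreed. Of 20 members with at least 2 probe sets above the floor on all arrays, 10 had differences of opposite sign between the Twist 10 µM and DMSO arrays, and 10 spread over more than 1 log2 unit. SEL1L, the adaptor between ERAD lectins and the ligase, was read at 0.30, but its dimmer probe sets reached 2.72 in the same direction. Probe sets of VCP stood at -0.71 and 0.77, and those of UBE2G2 at -0.83 to 0.74. Among the called genes, UGGT1, DERL2, FAF2 and EDEM3 had all such probe sets on the side of their call.

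The ubiquitin-conjugating enzymes of ERAD split as well. UBE2G2 had 13.08, 12.44 and 12.25 log2 units in the Twist line and 12.60, 12.75 and 12.92 in the control line, with a limma trend of -0.41 ± 0.09 per level in the Twist line (SE, adjusted p = 0.0350). The difference from DMSO was -0.82 at 10 µM and -0.54 after quality matching, and with the median over probe sets the trend turned to 0.15. UBE2J1 had 10.86, 11.21 and 11.33 in the Twist line, above its 10.44, 10.27 and 10.58 in the control line on every array. UBE2J2 had 10.16, 10.67 and 10.68 in the Twist line and 10.52, 10.52 and 10.49 in the control line. Neither UBE2J gene was called.

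FAF2, which recruits p97 to the ER membrane, had 11.92, 12.78 and 12.86 log2 units in the Twist line and 12.89, 12.78 and 12.63 in the control line. It rose in the Twist line by 0.47 ± 0.12 per level (limma, SE, adjusted p = 0.0428), yet the Twist 5 µM and 10 µM arrays stayed within the range of the control line. The Twist 10 µM array was 0.08 higher than the control 5 µM array. The p97 ATPase VCP and its cofactors UFD1 and NPLOC4 lay 0.57 to 0.79 above DMSO on the Twist 10 µM array and differed from DMSO by -0.53 to -0.24 on the control 10 µM array, and none was called. Read by their brightest probe sets, SEL1L and RNF139, a membrane ubiquitin ligase, differed from DMSO by 0.39 at most in the Twist line. With the median over probe sets SEL1L was called higher by limma in the Twist-line trend and in the difference of trends.

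The lines were also compared under DMSO, on 1 array each. The mean 3′ contrasts of these arrays were 0.96 in the Twist line and 0.28 in the control line. They were 0.36 and 0.45 at 5 µM, and 0.45 and 0.84 at 10 µM. The part of RNA quality in the differences between lines was not tested. Under DMSO 20 of the 32 members were lower and 12 higher in the Twist line, with a median difference of -0.36 log2 units against -0.01 over all genes. Past 2-fold were EDEM3 above, at the threshold itself and not past it with the values as deposited or after quantile normalization, and ERN1, UGGT2, HERPUD1 and DERL1 below, where 10.8% and 11.1% of all genes were past 2-fold above and below. At 5 µM 3 members, CREB3L2, HERPUD1 and OS9, were past 2-fold above the control line and none below, against 11% and 10% of all genes, and at 10 µM ERN1, CREB3, SELENOS and EDEM2 joined them, 7 in all, with EDEM3 below, against 13.9% and 11.9%. The median of the members was 0.18 at 5 µM and 0.23 at 10 µM. Over the 3 treatments the limma difference between lines called CREB3L2 and EDEM2 higher and UGGT2 lower in the Twist line among the 32, where 11.9% and 11.1% of all genes were called. All 3 Twist-line arrays lay above all 3 control-line arrays for 6 members and below them for 3, against 23.3% and 22.2% of all genes. Without the DMSO pair the fit called 20 members and 7551 of all 12345 genes. Of these members 15 were higher, FICD and CREB3L1 with their floor values among them, and 5 were lower. On the Twist 10 µM array against the control 5 µM array, the pair with nearly equal mean 3′ contrasts, 5 of 32 members, ERN1, CREB3L2, HERPUD1, OS9 and UBE2J1, were past 2-fold above and none below, against 13.1% and 11.7% of all genes.

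In the control line the same genes stayed near their DMSO signal. The median difference over the 32 members was -0.06 at 5 µM and -0.05 at 10 µM, in log2 units, and 0 were past 2-fold at either level, where 0.0556% and 0.352% of all genes were. The widest differences were those of CREB3 at -0.59 and EDEM3 at 0.56, both at 10 µM. Both Cmp302 arrays lay above DMSO in the Twist line and below it in the control line for 15 of the 32 members, against 27.6% of all genes, and the other way for 5, against 26.3%. These opposite sides of 1 DMSO array per line are no test.

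Of 51 further genes of the pathway, 45 were tested. In the Twist line 7 rose with Cmp302, CREB3L4, PRKCSH, NGLY1, UBAC2, BAG6, GET4 and WFS1, and 4 fell, CLGN, YOD1, MAN1A1 and ERLIN2, by the limma trend, where 10.9% and 11.3% of all tested genes rose and fell. CREB3L4, another ER-anchored relative of ATF6, had the widest difference above DMSO, 1.16 at 5 µM and 1.52 at 10 µM. Below DMSO were ERLIN2, a membrane factor of ERAD, at -1.03 and -1.47, the mannosidase MAN1A1 at -1.09 and -1.41, and FAM8A1, which binds the ligase complex, at -1.48 and -1.27. EIF2AK3, which encodes PERK, had 9.47, 9.19 and 9.58 log2 units in the Twist line and 9.25, 9.59 and 9.55 in the control line, with no order by level. The list median at 10 µM in the Twist line was 0.12, against 0.49 in the members. Commonly used reporters of the UPR are given as a yardstick: DDIT3, the stress factor CHOP, had 6.16, 11.44 and 11.96 in the Twist line and 5.26, 5.62 and 5.38 in the control line, and 5 of 6 reporters rose in the Twist line by limma.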

How the data were processed

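RNA of 6 samples was measured on 1 array each. The deposited values are log2 signals per probe set, a scale judged from their range because the labels name no unit. GCOS 1.2 is among the tools per the submitters' processing notes, but how background, summarisation and normalisation were handled was not given in the sources used here. Because the design assumed linear signals, scaling and floor were applied to log2 values. Arrays were shifted to a common median ratio, and values under the median of all were set to it as the floor. A gene was read by its brightest probe set with 1 symbol. The 12478 genes with 2 or more arrays above it were tested with limma 3.58.1 in R 4.3.3 (signal trend, Benjamini-Hochberg adjustment at 0.05): a fit of treatment and line for the line difference, and a fit of line by level (0, 1, 2) for the trends, each with 2 residual degrees of freedom. With 1 array per group, differences between arrays carry no error, and the number of arrays limits precision. Members were named if called in a tested term, past 2-fold at both levels, among the 4 widest of a subgroup, or in a paralogous family, and CANX, CALR and XBP1 by choice; VCP, UFD1, NPLOC4, SEL1L, RNF139 and the reporter DDIT3 were added. Members and lists were chosen with earlier results of these data known. The scripts were tested on simulated data. Alternatives were other scaling, floors, probe set rules, filters, level codes, fold sizes and left-out arrays. The non-overlap and opposite-side counts, the comparison of the Twist 10 µM with the control 5 µM array and the counts over 32 members were chosen after seeing the data.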

Additional observations from a re-analysis of the deposited data

Results flagged for a closer look

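ERN1 and SELENOS drew attention because their Cmp302 trends differed between the Twist line and the control line by the limma test of the difference itself, by 1.22 and 0.82 log2 units per level (adjusted p = 0.0476 and 0.0468), with both Cmp302 arrays above DMSO in the Twist line. Among the settings that end 1 or both of these calls are the floor at the 65th percentile, no filter, no signal trend and the levels coded 0, 1 and 1. A further 19 members had both Cmp302 arrays on one side of DMSO in the Twist line and both on the other side in the control line, a pattern that 5816 of all 10787 genes above the floor on all arrays share. The differences of trends were 0.94 for CREB3, 0.74 for UGGT1, 0.69 for DERL2, 0.66 for UFD1, 0.60 for FAF2, 0.58 for OS9, 0.50 for VCP, 0.49 for DERL1, 0.46 for NPLOC4, 0.37 for CREB3L2, 0.33 for ATF6, 0.32 for UGGT2, 0.30 for EDEM1 and 0.25 for EDEM2. They were -1.12 for EDEM3, -0.58 for UBE2G2, -0.49 for MBTPS2, -0.37 for ERLEC1 and -0.34 for GANAB, and none of the 19 was called by limma (adjusted p from 0.0506 to 0.283).

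SYVN1, the ubiquitin ligase at the centre of the ERAD complex, stood outside the main measurement because its probe set also carries the symbol of a microRNA gene, MIR6751. That probe set had 5.49, 7.07 and 7.62 log2 units in the Twist line and 6.33, 6.29 and 6.62 in the control line by level, a difference of 2.13 between the Twist 10 µM and DMSO arrays that had no test. The signal cannot be split between its symbols.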

How the results depend on the processing

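No paired analysis was possible because each group has 1 array and the labels number no replicates; the line difference matches the lines by treatment. Counts of called members, over 34 with FICD and CREB3L1 included, depended on the settings. The line difference (4 members) called 1 with no filter, 20 without the DMSO pair (15 higher, 5 lower), 1 without the 5 µM pair and 2 without the 10 µM pair, and 1 to 20 with single arrays left out. For this term, leaving out 1 array of a level gives the estimate of leaving out the pair, so these settings are not separate checks. The Twist-line trend (12 members) called 0 with no filter, where 18 of all genes passed, 21 with the levels coded 0, 1 and 1, of which 10 were shared, and 0 to 16 with single arrays left out. The difference of trends (3 members) called 5 with the floor at the 35th percentile, 0 at the 65th, with no filter or without the signal trend, 18 with the levels coded 0, 1 and 1, which kept ERN1 and ended FICD and SELENOS, and 0 to 14 with single arrays left out. Of these 3 members, FICD and SELENOS were called with the values as deposited and with quantile normalization, and ERN1 was not (adjusted p = 0.0526 and 0.0504), nor with the median over probe sets (0.0639). The control-line trend called 0 members in every alternative run, but with no filter 14 of all 19775 genes passed. At 1.5-fold in place of 2-fold, 17 members passed at 5 µM and 17 at 10 µM in the Twist line, 1 at 10 µM in the control line and 17 between lines under DMSO; quality matching left 2 at 5 µM in the Twist line. With the median over probe sets 3 members were past 2-fold between lines under DMSO, and the median difference at 10 µM in the Twist line was 0.28 in place of 0.51. That between lines under DMSO was -0.24 in place of -0.35, or -0.08 without probe sets of suffix _s_at, _x_at or _a_at. The setting with the median over probe sets also reversed UGGT2 in the line difference (0.023) and UBE2G2 in the Twist-line trend (0.152), and ended the Twist-line calls of ERN1, CREB3L1, EDEM3 and OS9. Without the probe sets of these suffixes VCP was called lower and CALR higher in the Twist-line trend. The cause of these changes was not tested.

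Over all named results, 158 values counted as unchanged, 127 lost the threshold in the same direction and 2 reversed. Most of the 158 kept their direction and side of the threshold. The rest are member counts for the array pair with nearly equal mean RNA quality contrasts, which have no test. Both the 158 and the 127 include fits of FICD and CREB3L1, which have no usable test. Line-difference fits that leave out 1 array of a level or both share 1 estimate but are counted separately. Leaving out an array leaves 1 residual degree of freedom. Signals at the floor have no order, so FICD and CREB3L1 give bounds.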
